A study of Mus musculus with 70 samples.

Results

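Microglia of young adult mice were compared with microglia of mice in the third week of life, to find which miRNAs differ between the postnatal and the mature state. The comparison uses 24 of 70 small RNA libraries: 12 of CD45+ cells at 8 weeks and 12 of CD45+ cells at postnatal day 15 (P15). Each age held 6 female and 6 male wild-type C57BL/6 mice, each giving 1 microglial library, so p-values measure the spread between mice. Brains were taken whole, digested to single cells with papain, and the CD45+ cells were captured on an antibody-coated dish. CD45 marks microglia but also monocytes, macrophages and other leukocytes. The CD45- cells left over from the same brains, mainly neurons and macroglia, are called bulk cells and serve as a comparison for the same age step (12 libraries per age). For some miRNAs the level in microglia of postnatal day 6 (P6, 10 libraries) is given as a description. The P6 libraries of both cell fractions were also part of the fit. No region of the brain was separated, and in bulk RNA fewer cells of a type and less RNA per cell cannot be told apart.

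Total counts ranged from 3220957 to 5420071 in the P15 microglial libraries and from 4244639 to 5982922 in those of 8 weeks. Levels are given as TMM-scaled CPM, the read count divided by the library size after scaling by the trimmed mean of M-values, per 1000000 counts. On that scale 3 counts, the floor below which a level is not told from 0, lay between 0.520 and 0.916. Floors cover counting error only. The myeloid markers, a list of 10 miRNA arms that includes miR-223, miR-142a, miR-511 and miR-146a, summed to 21822 to 48691 at P15 (median 40690.0) and 41317 to 69454 at 8 weeks (median 61529). In the bulk cell libraries the same sum was at most 833, so the CD45+ libraries carry the markers of their label. P15-M1 was the lowest of the microglial libraries on this list.

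A miRNA is cut from a hairpin precursor, loaded into an Argonaute protein, and guides it to messenger RNAs that pair with bases 2 to 8 from its 5′ end, the seed. miRNAs with one seed form a family and can act on common targets, and neighbouring precursors are often transcribed together. Microglia, the macrophages that live in the brain, divide and remodel synapses in the first postnatal weeks and become long-lived surveillant cells in the adult, and they lose their normal state when miRNA processing is removed.

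The miRNAs on which the results turn are given here, 5′ to 3′, with the seed in capitals (mature sequences from RefSeq, GRCm38.p6; 40 of the 49 called features matched an entry). The first 8 are miRNAs that fell, chosen to show the shared seed of miR-130b-3p and miR-301a-3p, the shared start of the miR-3473 pair and the neighbours miR-216 and miR-217. The next 7 rose or, like miR-29b-3p, belong to the miR-29 family, whose 3 guide arms share a seed. The last 4 had an age step that differed from that of bulk cells.
miR-3473b: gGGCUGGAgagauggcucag
miR-3473e: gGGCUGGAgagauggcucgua
miR-130b-3p: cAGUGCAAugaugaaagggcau
miR-301a-3p: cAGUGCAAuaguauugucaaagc
miR-217-5p: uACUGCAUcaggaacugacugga
miR-216a-5p: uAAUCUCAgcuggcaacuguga
miR-216b-5p: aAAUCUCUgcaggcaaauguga
miR-449a-5p: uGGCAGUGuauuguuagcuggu
miR-29a-3p: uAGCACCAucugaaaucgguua
miR-29b-3p: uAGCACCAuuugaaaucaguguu
miR-29c-3p: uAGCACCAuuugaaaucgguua
miR-101a-3p: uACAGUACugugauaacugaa
miR-101c: aCAGUACUgugauaacuga
miR-139-5p: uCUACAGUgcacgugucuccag
miR-455-3p: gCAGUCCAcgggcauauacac
miR-10a-5p: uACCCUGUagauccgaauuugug
miR-155-5p: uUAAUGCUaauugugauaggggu
miR-322-5p: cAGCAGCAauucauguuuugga
miR-503-5p: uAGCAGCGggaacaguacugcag

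miR-3473b and miR-3473e share their first 18 bases and miR-29b-3p and miR-29c-3p their first 17. The whole of miR-101c is contained in miR-101a-3p from its base 2 on. Reads of such pairs can be counted for either member, so that their values are not independent and remain uncertain.

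Of 1072 features tested, 49 (4.57%) differed by more than 2-fold between P15 and 8 weeks in the TREAT test of limma, which asks whether a change exceeds a threshold, at a Benjamini-Hochberg adjusted p of 0.05. Higher at 8 weeks were 19 (1.77%) and lower were 30 (2.8%). Of the 49, 46 were annotated miRNAs and 3 were unannotated candidates, named by the authors after their chromosome. The moderated test of the same fit, which asks only for a difference from 0, called 399 features (37.2%), 190 higher (17.7%) and 209 lower (19.5%), and 205 of these moved by less than 2-fold. The median log2 fold change over all features was -0.10. Adjusted p-values are from the TREAT test unless the moderated test is named.

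Without TMM, scaling by library size alone moved the median by -0.33 on the log2 scale and gave 11 higher and 61 lower. Under it miR-29c-5p, miR-101c, miR-150-5p, miR-1a-3p, miR-203-3p, miR-455-3p, miR-664-3p and miR-3964 lost their calls, while miR-29a-3p, miR-29c-3p, miR-139-5p, miR-101a-3p and miR-132-5p kept theirs. With entries of one name summed, miR-29c-5p, miR-150-5p and miR-664-3p lost their calls. Without a filter those of miR-15b-3p, miR-496a-3p, miR-544-3p, miR-5126 and miR-6960-5p were lost, and with a filter of 10 counts in 12 libraries those of miR-15b-3p, miR-544-3p, miR-5126, miR-135b-3p, miR-216b-5p and miR-217-3p. At 34 of the 49 calls the 12 libraries of one age did not overlap with the 12 of the other, 15 of them higher and 19 lower, against 82 of all 1072 features (7.65%), 4.57% higher and 3.08% lower. All 49 had the same sign in both sexes. The level was below 10 TMM-scaled CPM on average at both ages for 13 calls and above 1000 at either age for 7.

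The largest falls among abundant miRNAs were those of miR-3473b and miR-3473e. miR-3473b ranged from 253 to 513 TMM-scaled CPM at P15 with a median of 381, and from 25.9 to 53.3 at 8 weeks with a median of 37.6. The libraries of the different ages were far apart, at a log2 difference of -3.33 ± 0.15 (SE, adjusted p = 1.29e-21). miR-3473e ranged from 236 to 476 TMM-scaled CPM at P15 with a median of 367, and from 19.1 to 48.8 at 8 weeks with a median of 31.1. Its log2 fold change was -3.53 ± 0.15 (SE, adjusted p = 3.48e-22), again with no overlap. In P6 microglia the levels were higher still, at 1476 to 4492 TMM-scaled CPM with a median of 2062 for miR-3473b and 1454 to 4465 TMM-scaled CPM with a median of 2040.3 for miR-3473e. In bulk cells the step from P15 to 8 weeks was -0.32 ± 0.18 (SE) for miR-3473b and -1.18 ± 0.29 (SE) for miR-3473e. The difference between microglia and bulk cells passed the test for both, at -3.01 ± 0.22 (SE, adjusted p = 2.34e-11) and -2.35 ± 0.31 (SE, adjusted p = 0.00121).

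Both precursors lie in introns of protein-coding genes, that of miR-3473b at chr10:41670739-41670793 on the plus strand within Ccdc162, which is transcribed from the opposite strand, and that of miR-3473e at chr5:31667231-31667340 on the minus strand within Rbks on its own strand. Of 7 tested members of the miR-3473 list, 2 fell past 2-fold and 4 differed from 0, all lower, with a median of -1.61. Among all features 2.8% fell past 2-fold and 19.5% were lower in the moderated test. miR-3473a stood at -0.12 ± 0.22 (SE, moderated adjusted p = 0.721) and is one of the 3 members that did not pass either test.

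The family of miR-130 and miR-301 also fell. Its 3p guide arms with a RefSeq entry, miR-130a-3p, miR-130b-3p and miR-301a-3p, carry the seed AGUGCAA. Of the 7 tested arms of the family, 5p arms included, 4 passed the TREAT test and 6 the moderated test, all lower. The median log2 fold change was -1.70, and the shares lower over all features were 2.8% and 19.5%. miR-130b-3p ranged from 525 to 1198 TMM-scaled CPM at P15 with a median of 795, and from 99.6 to 146 at 8 weeks with a median of 115. The step was -2.71 ± 0.11 (SE, adjusted p = 1.61e-21), and in each of the 12 adult libraries the level was below the lowest P15 library. miR-301b-3p, which is encoded beside miR-130b, ranged from 54.9 to 104 TMM-scaled CPM at P15 with a median of 77.7, and from 7.05 to 13.5 at 8 weeks with a median of 9.99, without overlap. The step was -2.87 ± 0.16 (SE, adjusted p = 2.11e-15). The passenger arm miR-130b-5p fell by 1.98 on the log2 scale (adjusted p = 2.79e-08).

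Within the same family the more abundant miR-301a-3p moved less. It ranged from 1063 to 1312 TMM-scaled CPM at P15 with a median of 1199.8, and from 272 to 449 at 8 weeks with a median of 354, so the ages did not overlap. Its step was -1.70 ± 0.09 (SE, adjusted p = 2.29e-09). miR-130a-3p, the most abundant member, ranged from 749.8 to 3803 TMM-scaled CPM at P15 with a median of 2223, and from 758 to 1688 at 8 weeks with a median of 894, with overlap between the ages. At -1.04 ± 0.16 (SE, adjusted p = 1, moderated adjusted p = 1.74e-07) it differed from 0 but not by more than 2-fold. The precursor of miR-130b is at chr16:17124061-17124142 on the minus strand in an intron of 2610318N02Rik, and that of miR-301a at chr11:87113004-87113089 on the plus strand in an intron of Ska2, a gene of the kinetochore. In bulk cells miR-130b-3p fell by 2.13 and miR-301a-3p by 1.48 on the log2 scale, and no member of the family had an interaction with cell type past 2-fold.

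**Figure D1:**
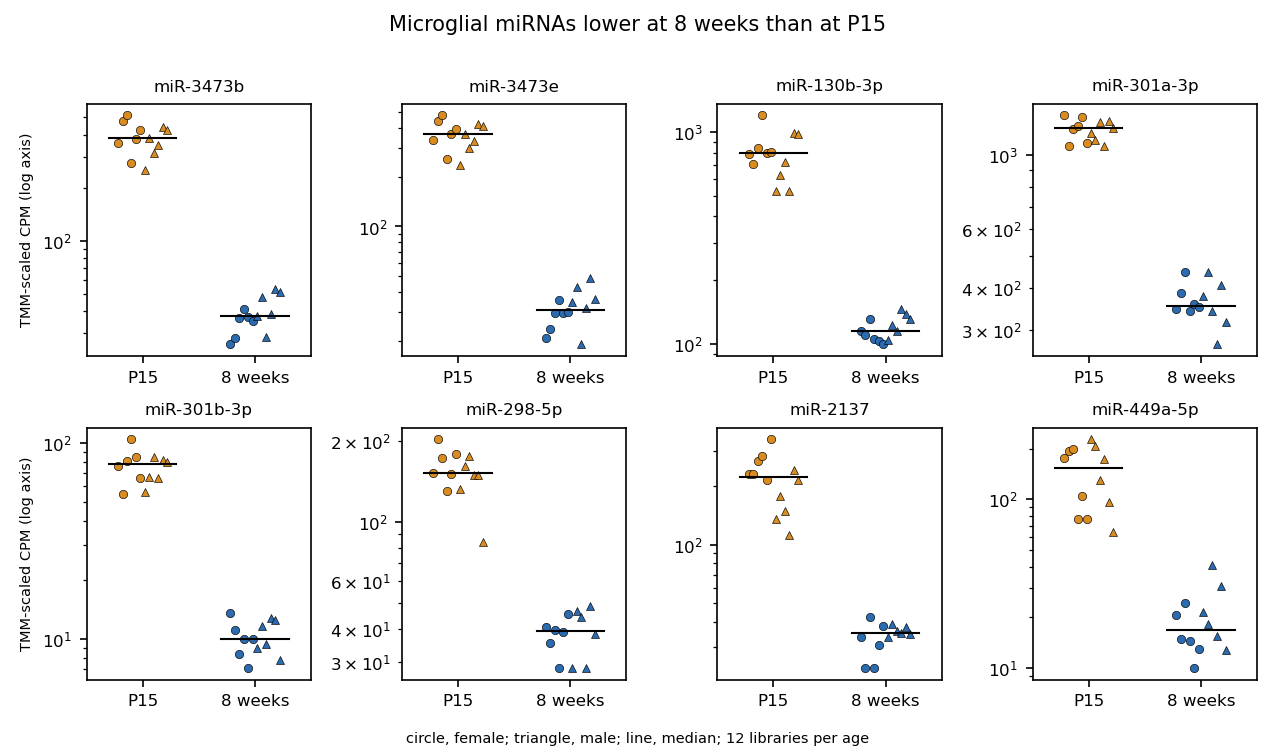
Level of 8 miRNAs in each microglial library in TMM-scaled CPM on a log axis, by age, with females as circles, males as triangles and the median as a line. In each panel the 12 libraries of 8 weeks lie below the 12 of P15, and miR-3473e drops from a median of 367 to 31.1.

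The lowest fold changes among the calls were those of miR-217-5p and miR-216b-5p, scarce miRNAs of chromosome 11. miR-217, miR-216a and miR-216b, known best from the exocrine pancreas, are encoded within one stretch of the plus strand, miR-216b at chr11:28746191-28746276, miR-216a at chr11:28757012-28757083 and miR-217 at chr11:28763728-28763835, the last pair in introns of the lincRNA Gm12082. miR-217-5p ranged from 12.3 to 129 TMM-scaled CPM at P15 with a median of 44.6, and from 0.256 to 20.98 at 8 weeks with a median of 2.16. The ages overlapped through 1 adult library, that of 8W-M3, and the log2 difference was -4.36 ± 0.92 (SE, adjusted p = 0.00893). miR-216a-5p ranged from 20.4 to 203 TMM-scaled CPM at P15 with a median of 74.2, and from 2.94 to 24.8 at 8 weeks with a median of 4.82. Its step was -3.45 ± 0.71 (SE, adjusted p = 0.0142), with the highest adult library just above the lowest P15 library.

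miR-216b-5p ranged from 4.74 to 90.4 TMM-scaled CPM at P15 with a median of 24.6, and from 0 to 6.29 at 8 weeks with a median of 1.09. Its log2 difference of -4.01 ± 0.96 (SE, adjusted p = 0.0307) lost the threshold when any 1 of 11 of the 24 mice was left out with both its libraries (8W-F1, 8W-F2, 8W-F4, 8W-F5, 8W-M1, 8W-M4, 8W-M6, P15-F3, P15-M1, P15-M2, P15-M4), with adjusted p up to 0.0791. miR-217-3p had at most 2 counts in any adult library. With the floor of 3 counts per library taken for the adult level, it was at least 4.32-fold higher at P15. Its call was lost without any 1 of 12 mice (8W-F2, 8W-F5, 8W-F6, 8W-M1, 8W-M2, 8W-M5, 8W-M6, P15-F2, P15-F3, P15-M1, P15-M2, P15-M4), with adjusted p up to 0.0815. All 4 arms of miR-216a and miR-217 were lower at 8 weeks in the moderated test. Bulk cells had the same direction, with a step of -3.76 ± 0.59 (SE) for miR-217-5p, and the interaction with cell type was -0.60 ± 1.03 (SE, adjusted p = 1). At P6, miR-217-5p stood at 7.30 to 750.2 TMM-scaled CPM with a median of 331 in microglia.

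miR-449a-5p, a miRNA of multiciliated cells, carries the seed GGCAGUG of the miR-34 family. It ranged from 64.2 to 226 TMM-scaled CPM at P15 with a median of 153, and from 9.98 to 40.9 at 8 weeks with a median of 16.9, with no overlap. Its log2 fold change was -2.81 ± 0.33 (SE, adjusted p = 2.63e-05), and in bulk cells it was -4.32 ± 0.28 (SE). miR-449c-5p of the same hairpin cluster, in an intron of Cdc20b at chromosome 13, was lower in the moderated test (adjusted p = 0.0106) at 0 to 3.34 TMM-scaled CPM at P15 and 0 to 1.06 at 8 weeks, around the floor. miR-34a-5p shares this seed and was -0.65 ± 0.09 (SE) in microglia. Across 8 tested members of the ciliated cell list, 1 fell in the TREAT test and 2 in the moderated test, against 2.8% and 19.5% of all features. Of the 8, 4 had a positive estimate, and the median log2 fold change was 0.0001. The summed level was 129.7 to 459.6 at P15 (median 298.3) and 109 to 366 at 8 weeks (median 155).

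miR-296 and miR-298 lie side by side in the imprinted Gnas region, miR-296 at chr2:174267047-174267125 on the minus strand and miR-298 at chr2:174267504-174267585 on the minus strand. miR-298-5p ranged from 84.2 to 203 TMM-scaled CPM at P15 with a median of 151.5, and from 28.4 to 48.5 at 8 weeks with a median of 39.2. It changed by -1.98 ± 0.11 (SE, adjusted p = 1.66e-10) without overlap. miR-296-3p ranged from 23.7 to 84.2 TMM-scaled CPM at P15 with a median of 47.6, and from 5.95 to 13.5 at 8 weeks with a median of 9.01. The step was -2.33 ± 0.20 (SE, adjusted p = 2.24e-07), and its adult libraries too were below those of P15. The other arms, miR-296-5p at -1.91 ± 0.34 (SE, moderated adjusted p = 2.89e-06) and miR-298-3p, whose adult level is around the floor (moderated adjusted p = 0.000118), moved the same way and did not pass the TREAT test.

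miR-15b-3p, from an intron of Smc4 at chr3:69009772-69009835 on the plus strand, ranged from 151 to 239 TMM-scaled CPM at P15 with a median of 166, and from 43.7 to 95.4 at 8 weeks with a median of 65.6. The groups did not overlap and the log2 difference was -1.44 ± 0.13 (SE, adjusted p = 0.0142), but the call was lost without any 1 of 7 mice (8W-M3, P15-F3, P15-M2, P15-M3, P15-M4, P15-M5, P15-M6), with adjusted p up to 0.118, without a filter and with the filter of 10 counts in 12 libraries. The guide arm miR-15b-5p, which is far more abundant, stood at -1.14 ± 0.13 (SE, moderated adjusted p = 8.22e-12).

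Among 53 tested members of the Dlk1-Dio3 cluster, the imprinted miRNA cluster of chromosome 12 that is expressed in neurons, 3 fell past 2-fold, 20 were lower and 3 higher in the moderated test, and the median was -0.31, against -0.10 over all features. Over all features 2.8% fell past 2-fold, and 19.5% were lower and 17.7% higher in the moderated test. With library size alone 6 members fell past 2-fold, 35 were lower and none higher in the moderated test, and the median was -0.65, against -0.43 over all features. The 3 were miR-323-3p at -1.87 ± 0.21 (SE, adjusted p = 0.00238), miR-496a-3p at -1.72 ± 0.21 (SE, adjusted p = 0.0142) and miR-770-3p at -1.59 ± 0.15 (SE, adjusted p = 0.00404). The call of miR-496a-3p was lost without P15-F3, P15-F6, P15-M2 or P15-M4, with adjusted p up to 0.0874, and without a filter. Both arms of a miRNA of the locus that the list does not hold also passed the TREAT test, miR-412-5p at -2.19 ± 0.24 (SE, adjusted p = 9.53e-05) and miR-412-3p at -2.18 ± 0.32 (SE, adjusted p = 0.00893). So did miR-544-3p (chr12:109729371-109729392 on the plus strand) at -1.72 ± 0.22 (SE, adjusted p = 0.0235), which lost its call without any 1 of 10 mice (8W-F2, 8W-F5, 8W-M4, 8W-M6, P15-F3, P15-F5, P15-F6, P15-M2, P15-M3, P15-M4), with adjusted p up to 0.105, without a filter and with the filter of 10 counts in 12 libraries. miR-412 is an arm pair from an exon of Mirg (chr12:109743289-109743368 on the plus strand) and miR-770 comes from an exon of Meg3 (chr12:109563692-109563785 on the plus strand). The guide arm miR-770-5p ranged from 93.2 to 226 TMM-scaled CPM at P15 with a median of 176, and from 30.0 to 89.6 at 8 weeks with a median of 62.1. It was just outside the threshold at -1.43 ± 0.15 (SE, adjusted p = 0.0525), although the ages did not overlap. In bulk cells the list had a median of 0.42, 27 members were higher and 10 lower in the moderated test, which called 50.7% of all features there, 31.6% higher and 19% lower. With library size alone the median in bulk cells was -0.05. No member had an interaction with cell type past 2-fold, while 35 of the 53 had one in the moderated test, which called 36.2% of all features.

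Some called miRNAs overlap other genes, so that their reads need not come from a miRNA. miR-664-3p, within the snoRNA gene Snora36b, was higher at 8 weeks by 1.35 ± 0.10 (SE, adjusted p = 0.009), but not past the threshold with entries of one name summed or with library size alone. miR-5121, at chr7:45126918-45126991 on the minus strand, lies within the snoRNA gene Snord33 in Rpl13a. It ranged from 43.5 to 85.9 TMM-scaled CPM at P15 with a median of 56.0, and from 9.06 to 19.5 at 8 weeks with a median of 15.5, with no overlap, at a log2 difference of -1.99 ± 0.17 (SE, adjusted p = 3.62e-06). miR-2137 overlaps no such gene. It lies in an intron of Zfp185 at chrX:72992079-72992144 on the plus strand and ranged from 112 to 346 TMM-scaled CPM at P15 with a median of 221.9, and from 23.2 to 42.4 at 8 weeks with a median of 35.1. That is a step of -2.62 ± 0.25 (SE, adjusted p = 4.42e-07), and the ages were again apart. In bulk cells both had a positive estimate, 1.48 ± 0.21 (SE) for miR-5121 and 1.19 ± 0.28 (SE) for miR-2137, and the interactions were -3.48 ± 0.25 (SE, adjusted p = 4.23e-12) and -3.81 ± 0.35 (SE, adjusted p = 2.41e-09).

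The miR-29 family rose. Its 3 guide arms carry the seed AGCACCA and are known to repress collagens and DNA methyltransferases. miR-29a-3p ranged from 10918 to 19431 TMM-scaled CPM at P15 with a median of 14155, and from 34566 to 48941 at 8 weeks with a median of 42988. All adult libraries were above all P15 libraries, at a log2 difference of 1.57 ± 0.09 (SE, adjusted p = 1.37e-06). miR-29c-3p ranged from 537 to 756 TMM-scaled CPM at P15 with a median of 704, and from 1907 to 3032 at 8 weeks with a median of 2590.5. It rose by 1.87 ± 0.08 (SE, adjusted p = 6.73e-14) on the log2 scale, also without overlap. miR-29b-3p ranged from 16047 to 39417 TMM-scaled CPM at P15 with a median of 26372, and from 42019 to 81687 at 8 weeks with a median of 65897. Its ages did not overlap either, but the change of 1.23 ± 0.11 (SE, adjusted p = 0.304, moderated adjusted p = 7.81e-15) did not exceed 2-fold beyond the error.

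All 7 tested arms of the family had a positive log2 fold change, with a median of 1.23. Of them 3 passed the TREAT and 6 the moderated test, against 1.77% and 17.7% of all features higher. With library size alone 6 of the 7 were positive. The exception in the moderated test was miR-29b-1-5p at 0.18 ± 0.15 (SE, moderated adjusted p = 0.378). The arms come from 2 loci, with miR-29a and miR-29b-1 on chromosome 6 (chr6:31062660-31062747 on the minus strand for miR-29a) and miR-29c and miR-29b-2 on chromosome 1 (chr1:195037547-195037634 on the plus strand for miR-29c). In bulk cells all 7 passed the TREAT test as higher, and 3 of them rose by more than in microglia in the test of the interaction. The steps there were 3.58 ± 0.10 (SE) for miR-29a-3p and 3.14 ± 0.12 (SE) for miR-29b-3p. The interactions were -2.01 ± 0.13 (SE, adjusted p = 2.41e-09) and -1.91 ± 0.15 (SE, adjusted p = 4.23e-06). In P6 microglia miR-29a-3p lay between 3599 and 6506 TMM-scaled CPM with a median of 4545.

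**Figure D2:**
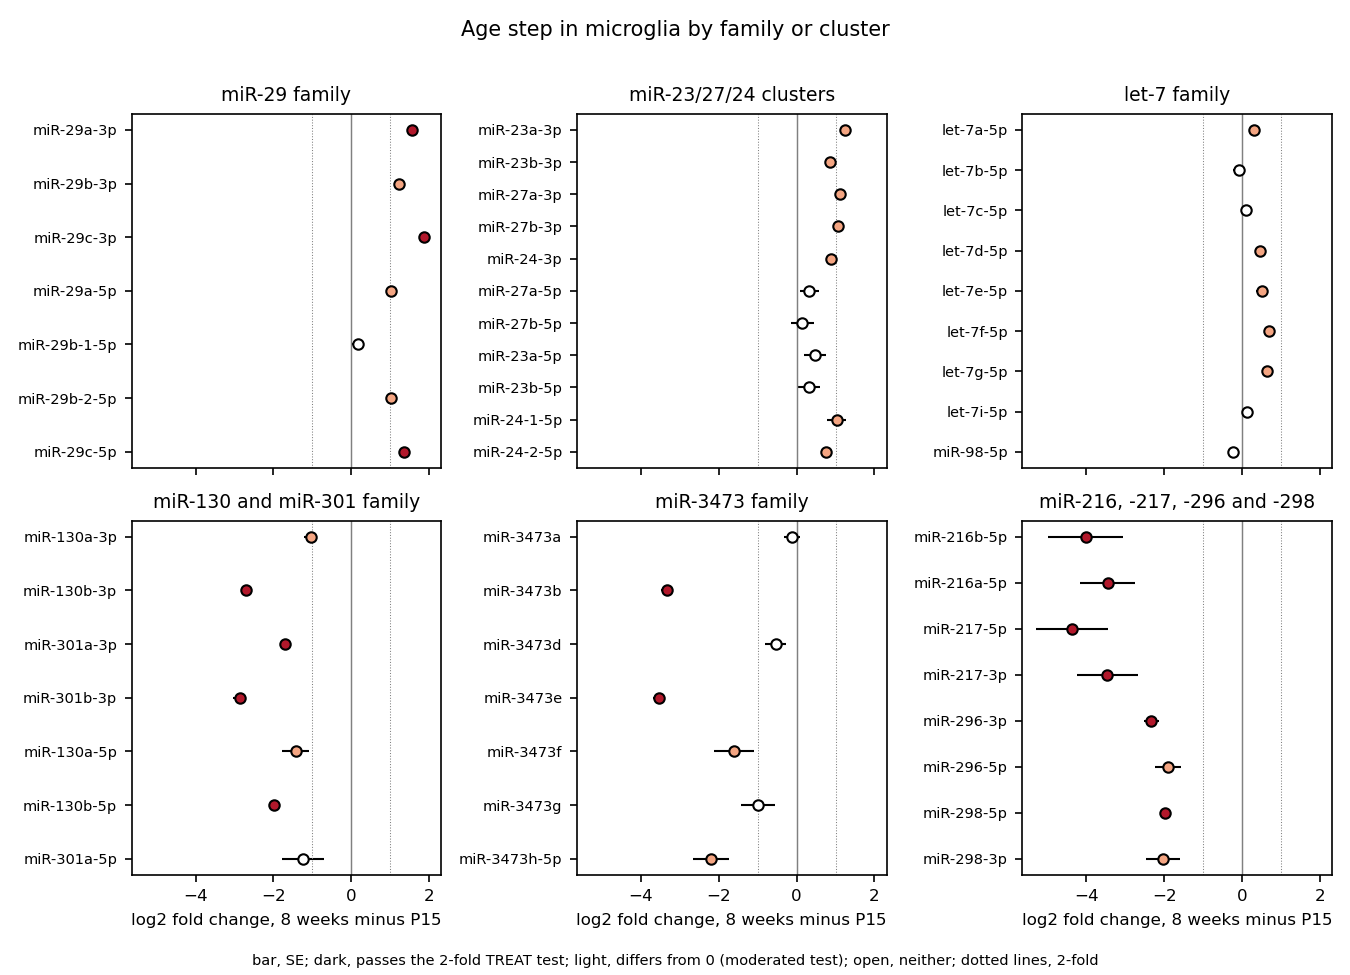
Log2 fold change of 8 weeks minus P15 in microglia with its SE for the tested members of 6 families or clusters, with dotted lines at 2-fold. The miR-29 arms lie right of 0 up to 1.87, and the arms of miR-130 and miR-301, miR-3473, miR-216 and miR-217, and miR-296 and miR-298 lie left of 0.

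miR-139-5p, hosted by an intron of the phosphodiesterase gene Pde2a at chr7:101475376-101475443 on the plus strand, ranged from 716 to 1243 TMM-scaled CPM at P15 with a median of 978, and from 2204 to 3543 at 8 weeks with a median of 3088. The libraries of the ages were separate and the log2 difference was 1.65 ± 0.10 (SE, adjusted p = 8.35e-07). miR-455-3p, from an intron of the collagen gene Col27a1 (mature arm at chr4:63256904-63256924 on the plus strand), ranged from 405 to 998 TMM-scaled CPM at P15 with a median of 683, and from 1601 to 2220.4 at 8 weeks with a median of 1931. It rose without overlap by 1.47 ± 0.09 (SE, adjusted p = 4.36e-05). miR-203-3p, known as a miRNA of skin epithelium, ranged from 122 to 207 TMM-scaled CPM at P15 with a median of 152.4, and from 354 to 512 at 8 weeks with a median of 415. It rose by 1.42 ± 0.09 (SE, adjusted p = 0.000693), with every adult library above the P15 range.

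miR-101a-3p, which targets the histone methyltransferase Ezh2, is encoded at chr4:101346945-101347027 on the minus strand in an exon of the lincRNA E130102H24Rik. It ranged from 461 to 1002 TMM-scaled CPM at P15 with a median of 617, and from 1444 to 2517 at 8 weeks with a median of 1963. No P15 library reached an adult one and the log2 difference was 1.62 ± 0.12 (SE, adjusted p = 3.14e-05). miR-101c, contained in its sequence, moved by 1.51 ± 0.15 (SE, adjusted p = 0.019) and lost its call without 8W-M1 or without P15-F4, with adjusted p up to 0.0765.

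miR-150-5p, abundant in mature B and T lymphocytes, ranged from 608 to 1397 TMM-scaled CPM at P15 with a median of 938, and from 1757 to 5913 at 8 weeks with a median of 2556. The ages did not overlap, and 8W-F4 at 5913 and 8W-M4 at 5497 TMM-scaled CPM stood above the other adult libraries. The same libraries had the highest adult sums of erythroid markers (48481 and 42991) and of endothelial markers (7995 and 6588). The log2 difference of 1.64 ± 0.19 (SE, adjusted p = 0.0191) fell short of the threshold without either of these mice, at an adjusted p of up to 0.0651. miR-150-3p stood at 1.22 ± 0.44 (SE, moderated adjusted p = 0.0218). The summed level of its 2 arms was higher in the CD45- bulk cells than in microglia at both ages, with a median of 4204 against 940.2 TMM-scaled CPM at P15 and of 7287 against 2559 at 8 weeks. The part of other cells in this rise was not tested.

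miR-132-5p ranged from 1.27 to 4.77 TMM-scaled CPM at P15 with a median of 2.83, and from 7.63 to 49.2 at 8 weeks with a median of 13.3. This arm of a neuronal activity-regulated precursor rose by 2.34 ± 0.36 (SE, adjusted p = 0.00747) without overlap. Its guide arm miR-132-3p and its neighbour miR-212-3p on chromosome 11 were higher by 1.48 ± 0.21 (SE, moderated adjusted p = 1.5e-08) and 1.24 ± 0.14 (SE, moderated adjusted p = 2.66e-11). In bulk cells all 3 passed the TREAT test as higher. miR-1a-3p, a miRNA of striated muscle, ranged from 11.2 to 34.3 TMM-scaled CPM at P15 with a median of 13.9, and from 41.8 to 133 at 8 weeks with a median of 59.6. Its ages were separate, at 1.83 ± 0.17 (SE, adjusted p = 0.000181).

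**Figure D3:**
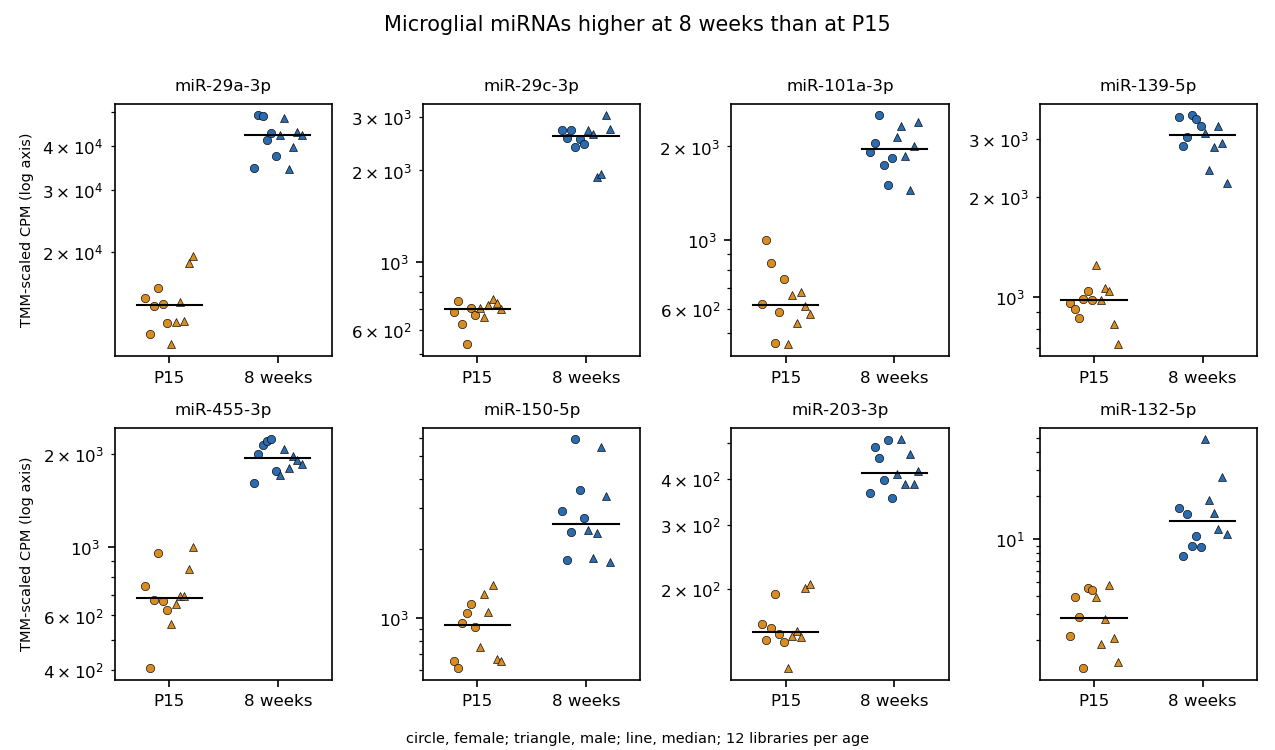
Level of 8 miRNAs in each microglial library in TMM-scaled CPM on a log axis, by age, with females as circles, males as triangles and the median as a line. In each panel the 12 libraries of 8 weeks lie above the 12 of P15, and the median of miR-29c-3p goes from 704 to 2590.5.

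The largest rises by fold belonged to scarce features. miR-145b ranged from 0 to 1.82 TMM-scaled CPM at P15 with a median of 0.589, and from 2.08 to 18.9 at 8 weeks with a median of 13.5. Its log2 fold change was 4.08 ± 0.41 (SE, adjusted p = 1.61e-08), and the lowest adult library was above the highest P15 library. miR-3086-5p, from an intron of Hspa12a at chr19:58911673-58911759 on the minus strand, ranged from 0 to 2.51 TMM-scaled CPM at P15 with a median of 0.763, and from 2.70 to 17.2 at 8 weeks with a median of 9.27. It rose by 3.27 ± 0.43 (SE, adjusted p = 4.36e-05) and the other arm, miR-3086-3p, by 3.23 ± 0.44 (SE, adjusted p = 8.44e-05). miR-1895, at chr3:134240505-134240583 on the minus strand within Gm26691 and antisense to a coding exon of Cxxc4, ranged from 14.6 to 52.8 TMM-scaled CPM at P15 with a median of 31.9, and from 71.7 to 198 at 8 weeks with a median of 123. The step was 2.14 ± 0.21 (SE, adjusted p = 2.51e-05) with no overlap. At P15 miR-145b and both miR-3086 arms lay near or below the floor, so that their fitted folds depend on the prior count. Among unannotated candidates, chr10_4182 was at 0 in 10 of 12 P15 libraries and at most 1.12 in the others, and at 0 to 4.98 at 8 weeks (adjusted p = 3.14e-05). Its P15 level is at the floor and the fitted fold is not given. The candidate chr2_25687 was called higher (adjusted p = 0.00202) at 0 to 2.55 TMM-scaled CPM at P15 and 1.89 to 7.73 at 8 weeks, a call that DESeq2's Wald test did not make. The candidate chr5_33756 was called lower (adjusted p = 0.0062) at 3.27 to 12.7 at P15 and 0 to 2.498 at 8 weeks. Their lower groups also lie near or below the floor and no fold is given.

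The 3 calls nearest to the threshold were miR-5126 (adjusted p = 0.0479), miR-135b-3p (adjusted p = 0.0414) and miR-6960-5p (adjusted p = 0.0447), all lower, and the first features beyond it were miR-770-5p (adjusted p = 0.0525), miR-3960 (adjusted p = 0.0639) and miR-344b-3p (adjusted p = 0.0652). The former were lost in 19, 17 and 17 of the 24 fits that left out 1 mouse each. They were kept without 8W-F3, 8W-F4, P15-F1, P15-F2 or P15-M1 for miR-5126, without 8W-F3, 8W-F6, 8W-M3, 8W-M4, P15-F1, P15-F5 or P15-M3 for miR-135b-3p and without 8W-F3, 8W-F6, 8W-M1, P15-F1, P15-F2, P15-M1 or P15-M6 for miR-6960-5p, with adjusted p up to 0.178, 0.131 and 0.141.

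The largest rises in mean level, besides those of miR-29a-3p and miR-29b-3p, were below or near 2-fold. They were those of miR-181a-5p, miR-146a-5p, let-7f-5p, let-7g-5p, miR-26a-5p and miR-24-3p, each with all adult libraries above all P15 libraries in TMM-scaled CPM. The gap was narrow for let-7g-5p, with 31168 in 8W-F6 against 31162 in P15-M5. It was narrow too for miR-181a-5p, with 76764 in 8W-F6 against 76290 in P15-F4. Overlap with library size alone was not examined. miR-181a-5p ranged from 50140.1 to 76289.6 TMM-scaled CPM at P15 with a median of 66014, and from 76764 to 126846 at 8 weeks with a median of 97228. Its log2 fold change was 0.58 ± 0.09 (SE, moderated adjusted p = 1.64e-07). let-7f-5p ranged from 37227 to 51468 TMM-scaled CPM at P15 with a median of 41963, and from 52705 to 107063 at 8 weeks with a median of 70097. It moved by 0.68 ± 0.08 (SE, moderated adjusted p = 1.21e-11), beside 0.65 ± 0.08 (SE, moderated adjusted p = 7.36e-10) for let-7g-5p, 0.70 ± 0.07 (SE, moderated adjusted p = 6.55e-13) for miR-26a-5p and 0.89 ± 0.09 (SE, moderated adjusted p = 6.21e-14) for miR-24-3p.

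Counts of family members here are from the moderated test unless TREAT or 2-fold is named. That test called 17.7% of all features higher and 19.5% lower, and with library size alone 101 and 375 of 1072. Of 9 tested let-7 members, the family that represses growth and Lin28 transcripts, 5 were higher and none lower, with a median of 0.30. But with library size alone 2 were higher, 4 lower and the median was -0.03. let-7b-5p at -0.07 ± 0.15 (SE, moderated adjusted p = 0.748) was not among the 5. Of 11 arms of the miR-23/27/24 clusters, 7 were higher, among them miR-23a-3p at 1.24 ± 0.10 (SE, moderated adjusted p = 1.4e-17), miR-27a-3p at 1.11 ± 0.11 (SE, moderated adjusted p = 6.45e-13) and miR-27b-3p at 1.06 ± 0.09 (SE, moderated adjusted p = 1.28e-16), with a median of 0.86 and no TREAT call. Of the cluster of miR-221 and miR-222 all 4 tested arms were higher in the moderated test (median 0.80), and of the miR-30 family 7 of 9 were higher and 1 lower (median 0.37). With library size alone 2 of the 4 were still higher, and of the miR-30 family 3 were higher and 2 lower with a median of 0.03. Of the 14 tested members of the miR-17 clusters, 7 were lower and none higher (median -0.36), with miR-18a-5p at -1.16 ± 0.11 (SE, moderated adjusted p = 1.61e-14). With library size alone 12 of the 14 were lower, 1 of them past 2-fold, and the median was -0.69.

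miR-146a-5p, which is induced by NF-kB and represses Traf6 and Irak1, ranged from 9912 to 22194 TMM-scaled CPM at P15 with a median of 16848, and from 25394 to 47505 at 8 weeks with a median of 38654. The ages did not overlap and the log2 difference was 1.15 ± 0.13 (SE, adjusted p = 1, moderated adjusted p = 1.08e-11). miR-155-5p, a miRNA of activated immune cells, ranged from 46.0 to 88.0 TMM-scaled CPM at P15 with a median of 62.2, and from 99.8 to 202 at 8 weeks with a median of 128. Its rise of 1.02 ± 0.13 (SE, adjusted p = 1, moderated adjusted p = 5.5e-10) was also without overlap. The myeloid miR-223-3p was 0.23 ± 0.10 (SE, moderated adjusted p = 0.073) and the haematopoietic miR-142a-3p -0.27 ± 0.12 (SE, moderated adjusted p = 0.0674). miR-511-3p, from an intron of the mannose receptor gene Mrc1, ranged from 74.2 to 237 TMM-scaled CPM at P15 with a median of 160.0, and from 40.9 to 82.2 at 8 weeks with a median of 61.1. It overlapped between the ages and stood at -1.39 ± 0.17 (SE, adjusted p = 0.174, moderated adjusted p = 1.79e-10).

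Of 10 tested inflammation-linked miRNAs 6 were higher and 2 lower in the moderated test and none passed the TREAT test, with a median of 0.80, and with library size alone 6 were higher and 4 lower. Over all features the moderated test called 17.7% higher and 19.5% lower. miR-21a-5p was -0.23 ± 0.09 (SE, moderated adjusted p = 0.0349). Of the 10 myeloid markers 2 were higher and 2 lower, near the shares over all features, with a median of -0.08 and 6 of the 10 estimates below 0. miR-10a-5p, encoded in the Hoxb cluster at chr11:96317165-96317274 on the plus strand, ranged from 53.7 to 141 TMM-scaled CPM at P15 with a median of 96.9, and from 221.9 to 398 at 8 weeks with a median of 269. Although no adult library overlapped with P15, its change of 1.68 ± 0.25 (SE, adjusted p = 0.0718) missed the threshold. Of 10 miRNAs that were also assayed by quantitative PCR, 2 were higher and 1 lower in the TREAT test. The 3 are miR-29a-3p, miR-455-3p and miR-3473b. Of the others, miR-21a-3p stood at -0.10 ± 0.19 (SE, moderated adjusted p = 0.723) and the unannotated candidate chr3_29427 at 1.19 ± 0.18 (SE, moderated adjusted p = 1.38e-07). By quantitative PCR the study found this candidate enriched in microglia, but did not find its level to rise with age.

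The age step was then set beside that of the bulk cells of the same mice, in the same fit. In bulk cells 118 features (11%) passed the TREAT test, 65 higher (6.06%) and 53 lower (4.94%). Of the 49 microglial calls, 46 had the same sign in bulk cells and 26 also passed the TREAT test there in the same direction. None passed it in the opposite direction. The share of all features with the same sign in both was not counted. The difference between the steps was tested as an interaction, which 36 features passed (3.36%), 16 with the step higher in microglia (1.49%) and 20 with it lower (1.87%). Of the microglial calls, 6 were among them: miR-29a-3p, miR-3473b, miR-3473e, miR-2137, miR-5121 and miR-5126.

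Interactions with the step higher in microglia included many miRNAs that fell in bulk cells. The cluster of miR-322, miR-503, miR-351, miR-542 and miR-450 lies on chromosome X (chrX:53048008-53054327, minus strand). It includes miR-322 and miR-503, relatives of miR-15/16 that restrain the cell cycle. Of its 13 tested arms 9 fell in bulk cells by the TREAT test, none passed it in microglia, and 7 had an interaction past 2-fold. The shares of all features that did so were 4.94%, 4.57% and 3.36%. miR-322-5p was 0.02 ± 0.09 (SE, moderated adjusted p = 0.86) in microglia and -2.20 ± 0.10 (SE) in bulk cells, with an interaction of 2.22 ± 0.12 (SE, adjusted p = 4.23e-12). For miR-503-5p the steps were -0.54 ± 0.11 (SE) and -2.70 ± 0.16 (SE), with an interaction of 2.16 ± 0.19 (SE, adjusted p = 2.61e-06).

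The miR-17-92 cluster on chromosome 14 (chr14:115043684-115044496, plus strand), linked to proliferation, had 11 tested arms. Of these, 7 fell in bulk cells by the TREAT test, none passed it in microglia, and 3 had an interaction past 2-fold. The shares over all features are again 4.94%, 4.57% and 3.36%. miR-17-5p, for example, was -0.26 ± 0.12 (SE) in microglia against -1.87 ± 0.13 (SE) in bulk cells, with an interaction of 1.61 ± 0.17 (SE, adjusted p = 0.00959).

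The largest positive interactions were those of miR-10a-5p at 2.97 ± 0.40 (SE, adjusted p = 0.000197) and miR-155-5p at 2.24 ± 0.18 (SE, adjusted p = 1.06e-07), which had positive steps in microglia and negative ones in bulk cells. The latter were -1.29 ± 0.35 (SE) for miR-10a-5p and -1.22 ± 0.14 (SE) for miR-155-5p. They were followed by miR-322-5p, miR-503-5p and miR-5099, the last at 2.08 ± 0.22 (SE, adjusted p = 0.000197). Among the most negative were miR-677-5p at -3.96 ± 0.70 (SE, adjusted p = 0.00168), then miR-2137, miR-5121 and miR-5126 at -3.47 ± 0.52 (SE, adjusted p = 0.000306). miR-677-5p lies within a snoRNA gene in an intron of Atp5b. Its levels of 0 to 2.97 TMM-scaled CPM in adult microglia lie around the floor, so that its fitted value is no measure of size. The candidate chr18_22209 passed as well (adjusted p = 0.0078), but its levels of 0 to 1.13 TMM-scaled CPM in adult microglia lie around the floor and the fitted value is no measure of size. Also negative was that of miR-21a-5p, with 1.65 ± 0.09 (SE) in bulk cells and an interaction of -1.88 ± 0.12 (SE, adjusted p = 4.08e-08), and that of miR-34a-5p, induced by p53, with 1.55 ± 0.10 (SE) and -2.21 ± 0.12 (SE, adjusted p = 5.5e-12). The number of interactions in the positive direction went from 16 to 28 without P15-M6.

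**Figure D4:**
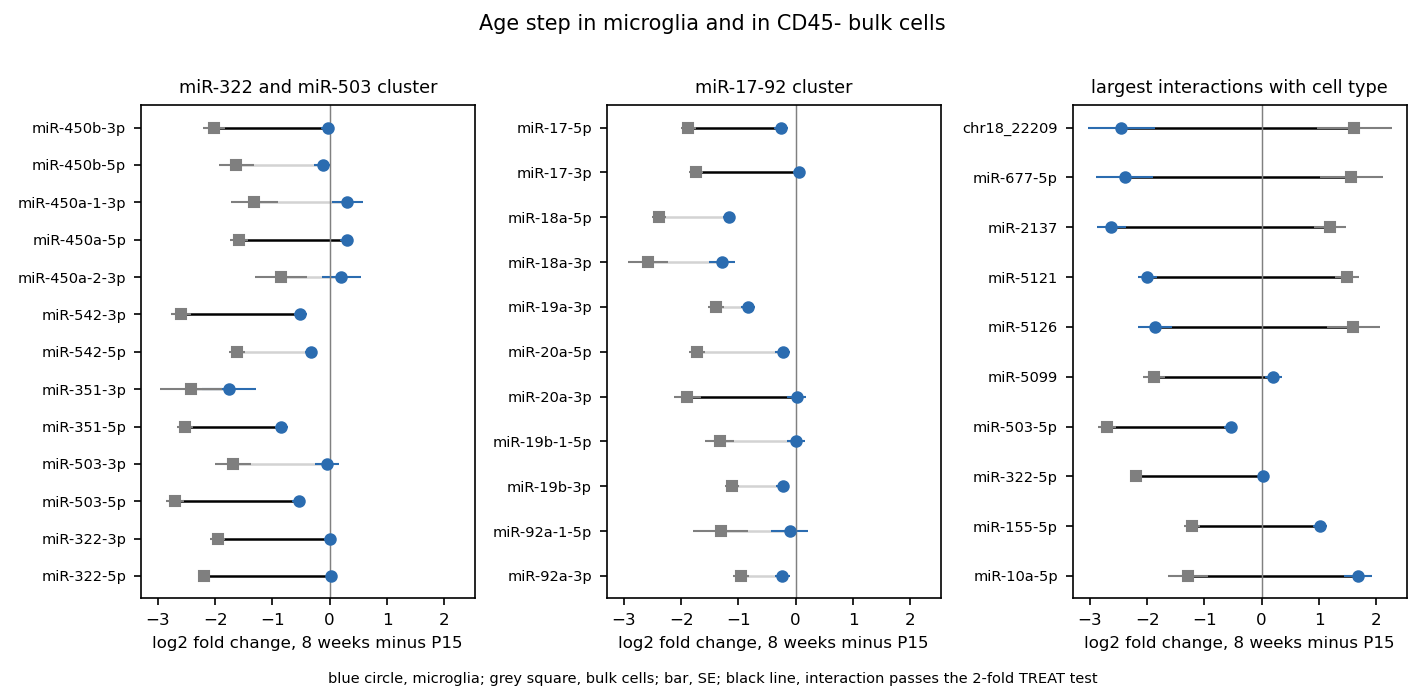
Log2 fold change of 8 weeks minus P15 with its SE in microglia (blue circles) and bulk cells (grey squares). The panels hold the arms of the miR-322 and miR-17-92 clusters and the 5 largest interactions in each direction. Black lines join pairs whose difference passed the TREAT test, as for miR-322-5p with 0.02 against -2.20.

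Between females and males no feature passed the test of a difference in the age step at the adjusted threshold, by limma's TREAT test or by its moderated test (0 of 1072 in each), and 47 features had an unadjusted p under 0.05 in the moderated test. Of the 49 calls 39 had a larger estimate in females, the median absolute difference between the sexes was 0.43 on the log2 scale, and 6 had an unadjusted p under 0.05 for the difference. How many of all features had the larger estimate in females was not counted.

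Both arms of a precursor are counted in one library, so their ratio depends on the scaling only through the pseudocount of 0.5 CPM added to each arm, which matters for scarce arms. Among 323 precursors with both arms tested, the log2 ratio of the 5p to the 3p arm differed between the ages in 96 (29.7%), 38 toward the 5p (11.8%) and 58 toward the 3p arm (18%). With a pseudocount of 5 CPM 150 differed. Where both arms averaged at least 10 CPM, scaled by library size alone, 53 of 115 precursors differed. The SE and adjusted p-values of single precursors below are from these 115. For miR-376b the mean ratio went from -0.46 ± 0.40 (SD, n = 12) at P15 to 1.01 ± 0.23 (SD, n = 12) at 8 weeks, a difference of 1.47 ± 0.13 (SE, adjusted p = 1.54e-09). For miR-574 it went from 0.06 ± 0.45 (SD, n = 12) to -1.16 ± 0.20 (SD, n = 12), toward the 3p arm by -1.22 ± 0.14 (SE, adjusted p = 1.44e-07).

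Precursors of called miRNAs were among these. The balance of miR-139 moved toward its 5p guide arm by 0.74 ± 0.10 (SE, adjusted p = 2.08e-06), and those of miR-29a, at -0.55 ± 0.08 (SE, adjusted p = 2.63e-06), and miR-455, at -0.58 ± 0.09 (SE, adjusted p = 1.17e-05), toward the 3p arm that rose. That of miR-130b moved by 0.76 ± 0.14 (SE, adjusted p = 6.36e-05) toward the 5p arm, as the 3p guide fell further. The pan-leukocyte precursor miR-142a changed by 0.51 ± 0.11 (SE, adjusted p = 0.000393).

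Markers of other cell types are given as summed levels of each list in TMM-scaled CPM, and their counts in the moderated test stand against 17.7% higher and 19.5% lower over all features. Erythroid markers (miR-451a, miR-144, miR-486) were 31342 to 111496 at P15 (median 43962) and 15344 to 48481 at 8 weeks (median 29009.5), and all 5 were lower in the moderated test, as miR-451a at -0.84 ± 0.20 (SE, moderated adjusted p = 0.00049) and miR-144-3p at -1.31 ± 0.22 (SE, moderated adjusted p = 8.45e-07). Lymphocyte markers were 611 to 1398 at P15 (median 940.2) and 1759 to 5915 at 8 weeks (median 2559), with both arms of miR-150 higher. Choroid plexus markers (miR-204, miR-211) were 1335 to 11664 at P15 (median 2324) and 3404 to 13146 at 8 weeks (median 5986), with P15-M1 the highest of its age. All 3 tested arms were higher in the moderated test, and 2 with library size alone. The lymphocyte sums did not overlap between the ages, whereas those of the other marker lists did. Endothelial markers (miR-126a) were 1248 to 4687 at P15 (median 2594) and 2196 to 7995 at 8 weeks (median 3915), and both arms were higher, which neither was in the moderated test with library size alone. Mural and fibroblast markers were 1845 to 12728 at P15 (median 7707) and 3641 to 23577 at 8 weeks (median 12314), with 3 of 8 higher and 3 lower, and with library size alone 3 passed the TREAT test as lower.

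Neuronal markers such as miR-124 were 13514 to 47028 at P15 (median 26251) and 20652 to 58504 at 8 weeks (median 30453), with 5 of 10 higher and 1 lower in the moderated test, and oligodendrocyte markers (miR-219a, miR-338) were 1203 to 3492 at P15 (median 1569.9) and 1863 to 3422 at 8 weeks (median 2291), with 2 of 5 higher. Members at 0 in at least 1 library were found in the lists of mural and fibroblast (2 of 8 at P15 and 3 at 8 weeks), ciliated (3 of 8 at each age) and lymphocyte markers (1 of 2 at P15). The abundant miR-9-5p, expressed in neural cells, ranged from 22144 to 132797 TMM-scaled CPM at P15 with a median of 63345, and from 33413 to 108479 at 8 weeks with a median of 49825, and its partner arm miR-9-3p was -0.17 ± 0.18 (SE, moderated adjusted p = 0.502). miR-200b-3p and miR-182-5p, of epithelial and sensory cells, were high in 4 P15 libraries and 1 adult library. In these 4, miR-200b-3p ranged from 55.2 in P15-M6 to 190.3 in P15-F6, against at most 13.2 in the other P15 libraries and 45.9 at 8 weeks. In them miR-182-5p ranged from 30.4 in P15-M6 to 166 in P15-F6, against at most 12.7 in the other P15 libraries, and 8W-M2 at 72.3 was above P15-M3 and P15-M6. Without these 4 mice 16 features were higher and 23 lower, a choice made after seeing the data, and miR-150-5p, miR-101c, miR-217-3p and chr2_25687 were among the calls lost, while miR-3473b, miR-3473e, miR-130b-3p, miR-217-5p and miR-29a-3p were kept. The part of these cell types in the age step was not tested.

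**Figure D5:**
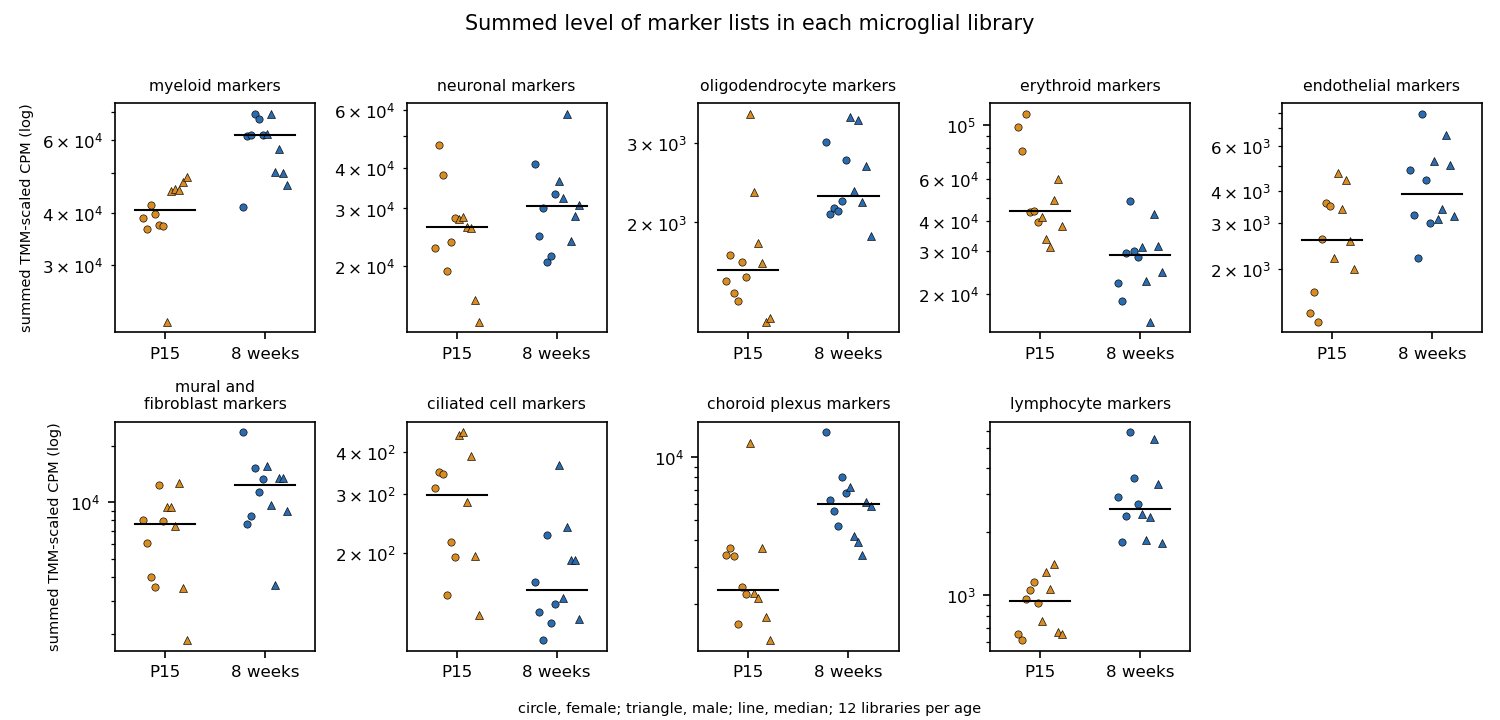
Summed level of 9 marker lists in each microglial library in TMM-scaled CPM on a log axis, by age, with females as circles, males as triangles and the median as a line. Myeloid, lymphocyte and choroid plexus sums have higher medians at 8 weeks and the erythroid and ciliated sums lower ones. The myeloid sum holds miR-146a-5p, whose median goes from 16848 to 38654, and 6 of its 10 members have a negative log2 fold change.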

How the data were processed

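The samples are small RNA libraries of mouse CD45+ microglia and CD45- bulk cells. Age, sex, cell type and mouse number came from the sample titles. Per the labels and the methods of the study, RNA was extracted with a miRNeasy kit and libraries were made with MGIEasy small RNA chemistry. The authors trimmed reads with fastp 0.20.0 and counted them per miRNA with miRDeep2 against miRBase and the GRCm38 (mm10) genome. The deposited values are raw read counts. How reads that match several precursors were counted is not given in the sources used here.

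Of repeated names the entry with the largest total was kept, which left 58.4% to 66.4% of the counts in the 24 microglial libraries and 1882 features. P6 female mouse 6, inferred to be the outlier the authors removed, was left out. The remaining 68 libraries of 34 mice were fitted by voom in R 4.3.3 with limma 3.58.1 and edgeR 4.0.16, using TMM scaling, 12 group means of age, sex and cell type, and mouse as random effect (consensus correlation 0.124). A feature was tested where 5 or more libraries reached 1 CPM (1019 annotated, 53 candidates). The contrast averages the sexes. TREAT used a threshold of 1 on the log2 scale, with Benjamini-Hochberg adjustment at 0.05. Arm balance was log2 of the 5p over the 3p CPM, each plus 0.5, in limma with age and sex. The fit was tested on simulated data. Precursor positions are from the GRCm38 annotation.

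The members, lists and tests were chosen with earlier results of these data known. Named miRNAs are the 12 calls with the largest log2 fold change in each direction, the 8 with the largest rise and fall in mean level, the qPCR list, members of the lists, the other arms, the 3 features on each side of the threshold and the 5 largest interactions in each direction, of which the text gives a selection. The alternatives were edgeR's quasi-likelihood test, DESeq2 1.42.0, the 24 libraries alone, no mouse block, a block on the number in the title, library size alone, DESeq2 size factors, a filter of 10 counts in 12 libraries, no filter, P6 female mouse 6 included, quality weights, entries summed per name, other pseudocounts, and leaving out each mouse with its libraries. Leaving out 4 P15 mice together was chosen after seeing the data.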

Additional observations from a re-analysis of the deposited data

Results flagged for a closer look

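The step from P15 to 8 weeks differed between microglia and bulk cells, by limma's TREAT test of the interaction with a Benjamini-Hochberg adjusted p under 0.05, in 36 of 1072 features. In 16 the log2 step was higher in microglia and in 20 it was lower. Of the miRNAs described above, the interaction on the log2 scale was positive for miR-10a-5p (2.97), miR-155-5p (2.24), miR-322-5p (2.22), miR-503-5p (2.16), miR-5099 (2.08) and miR-17-5p (1.61). It was negative for chr18_22209 (-4.07), miR-677-5p (-3.96), miR-2137 (-3.81), miR-5121 (-3.48), miR-5126 (-3.47), miR-3473b (-3.01), miR-3473e (-2.35), miR-34a-5p (-2.21), miR-29b-1-5p (-2.06), miR-29a-3p (-2.01), miR-29b-3p (-1.91) and miR-21a-5p (-1.88). Of these, miR-10a-5p, miR-155-5p, miR-322-5p and miR-5099 had a positive estimate in microglia and a negative one in bulk cells, those of miR-322-5p and miR-5099 in microglia turning negative with library size alone. The estimates of chr18_22209, miR-677-5p, miR-2137, miR-5121, miR-5126, miR-34a-5p and miR-21a-5p were negative in microglia and positive in bulk cells. The values of chr18_22209 and miR-677-5p rest on levels around the floor of 3 counts and are no measure of size. What these differences come from was not tested.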

How the results depend on the processing

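Between microglia of 8 weeks and P15, the count of TREAT calls was 26 higher and 56 lower with edgeR's quasi-likelihood test, 18 and 35 with DESeq2's Wald test (which did not call miR-135b-3p, miR-3964, miR-6960-5p and chr2_25687), 20 and 31 with the 24 libraries alone, 19 and 33 with DESeq2 size factors, 11 and 61 with library size alone, 21 and 25 without a filter, 21 and 22 with the filter of 10 counts in 12 libraries, 19 and 28 with P6 female mouse 6 included, 21 and 43 with quality weights, and 16 and 39 with entries of one name summed. In the moderated test library size alone gave 101 higher and 375 lower. Of the 49 calls, 37 were kept in each of the 24 fits that left out 1 mouse with both its libraries, and 28 in all of the 13 other alternatives. Leaving out 1 mouse gave 18 to 24 higher and 21 to 32 lower by TREAT, and 177 to 217 higher and 184 to 215 lower in the moderated test. In bulk cells library size alone gave 30 higher and 105 lower, and leaving out 1 mouse 58 to 69 and 47 to 58. Interactions with the microglial step higher numbered 25 with DESeq2 size factors, with library size alone and with entries summed, 30 with the stricter filter, and 13 to 28 without 1 mouse, from 13 without 8W-F4 to 28 without P15-M6. Those with it lower numbered 14 to 24 without 1 mouse. In the moderated test library size alone gave 2 higher and 6 lower of the 10 myeloid markers, 3 and 1 of the 10 neuronal, and 1 and 2 of the 5 oligodendrocyte markers. The sex interaction stayed at 0 calls. Arm balance calls were 115 with a pseudocount of 1 CPM, 150 with 5 CPM, and 53 of the 115 precursors where both arms averaged at least 10 CPM. The cause of the changes across the alternatives was not tested.

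Some log2 fold changes of named miRNAs changed sign, without a filter those of let-7b-5p (0.0084), with the filter of 10 counts in 12 libraries those of let-7b-5p (0.0196), without the 4 P15 mice those of miR-182-5p (0.48) and miR-200b-3p (0.22), with quality weights those of miR-21a-3p (0.0098), with library size alone those of miR-223-3p (-0.10), miR-29b-1-5p (-0.15), miR-322-5p (-0.30) and miR-5099 (-0.13), with DESeq2 size factors those of miR-322-5p (-0.0093), and with entries summed those of miR-322-5p (-0.061). Without 1 mouse the values went for let-7b-5p from -0.12 to 0.046, miR-21a-3p from -0.24 to 0.079, miR-322-5p from -0.013 to 0.14, miR-3473a from -0.17 to 0.033 and miR-9-3p from -0.25 to 0.0077.

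The mouse number in the title was shared across ages by different animals. The mean correlation of same-numbered deviations from the group means was 0.035 (-0.061 to 0.141), 1 of 12 pairs exceeded 0.1, and 1 of 12 libraries matched best with its own number, so the numbers are not a pairing. A replicate block on that number gave 19 higher and 31 lower calls and ended those of miR-135b-3p, miR-3964 and miR-6960-5p, and no block on mouse gave 19 and 30.

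Features under 10 CPM rest on few reads. P-values of the 24 libraries cover spread between mice of one capture protocol, and levels are relative to each library's total.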

Other observations

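A further 8 miRNA lists had no member that passed the TREAT test between P15 and 8 weeks in microglia. Their counts are from limma's moderated test, which called 37.2% of all features. Of 10 tested arms of the miR-181 family 3 were higher and 3 lower, with a median log2 fold change of -0.15, and 1 and 4 with library size alone. Of 5 tested members of the miR-125 and miR-99 group, relatives of the developmental timing miRNA lin-4 and its neighbours, 3 were higher and none lower, with a median of 0.48, and 1 higher and 1 lower with a median of 0.14 with library size alone. Of 6 members of the miR-15/16 family 2 were higher and 1 lower (median 0.10), and with library size alone none was higher and 3 were lower, 1 of them past 2-fold (median -0.23). Of the 3 tested arms of the miR-10 family 2 were higher and 1 lower (median 1.66). The miR-148 family had 1 higher and 1 lower of 5 (median -0.17), and 1 and 2 with library size alone, with 1 lower past 2-fold. The miR-135 family had 1 and 1 of 4 (median 0.16), and with library size alone none was higher and 1 was lower, past 2-fold (median -0.17), a list that does not hold the called miR-135b-3p. None of 3 arms of the miR-183 cluster (median -0.57) and none of 5 of the epithelial miR-200 family (median -0.83) passed.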
